A study of Mus musculus with 12 samples.

Results

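Gold nanoparticles of 100 nm were compared with phosphate-buffered saline (PBS) in mouse retina on 3 of the 12 arrays of the study, those whose titles name gold, 100 nm and replicates 1 to 3. The animals were 5 weeks old, male and of strain C57BL/6 per the labels, and gold 100 nm or PBS was injected into the vitreous of the right eye. Retinas were collected after 7 days. Each group had 12 mice, and 4 retinas were pooled in a tube, so a replicate is a pool and not a mouse. The other 9 arrays hold gold 20 nm, silicate 20 nm and silicate 100 nm against PBS, 3 arrays each. Their mice were of the same sex, strain and age per the particle labels. The strain labels of the PBS channel on the silicate arrays differ from array to array, and this was not resolved. The labels name no transgene or deletion in any group, and an uninjected retina was not analysed here. The sample annotation writes the particle size with the unit nM, the protocol gives it as a diameter in nm, and the protocol is followed here.

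Each array carried RNA of a particle pool labelled with the dye Cy5 and RNA of a PBS pool labelled with Cy3. The unit of all comparisons is the log2 ratio of the gold pool over the PBS pool, so that 1 is a doubling and a positive value means more RNA in the gold pool. Levels of single pools are given as normalized log2 intensity, which serves to set pools against each other for 1 gene and not genes against each other. The dyes were never exchanged, so a dye effect of a probe cannot be told apart from an effect of gold in a ratio against PBS. Replicates 1, 2 and 3 lie on slides 1, 2 and 3, always at the same position, so that position on the slide and group cannot be told apart either. Each slide also carried 1 array of every other particle group, and which PBS tube was used on which array is not stated. In pooled tissue, fewer cells of a type and less RNA per cell cannot be told apart.

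The vitreous chamber is lined by the retina at the back and by the ciliary body, the ciliary zonule and the lens at the front. The ciliary epithelium secretes aqueous humour and vitreous proteins, the pigment epithelium behind the photoreceptors makes melanin and recycles the visual chromophore, and lens fibres are packed with crystallins. Retinal injury is known for a response of Muller glia, with endothelin and stress genes, and for the entry or activation of macrophages and microglia. A retina dissected from such a small eye can carry pieces of the tissues that touch it, and markers of all of them were therefore listed beside those of retinal cells.

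The retinal identity of the pools was clear. Of 24 rod genes, which encode the phototransduction machinery, all were well above background on all 3 arrays in both dyes, and their median level was 16.7, 16.7 and 16.9 in the gold pools against 16.2, 16.6 and 16.6 in the PBS pools of slides 1, 2 and 3. Markers of neighbouring tissues were measured too, with 20 of 20 pigment epithelium genes and 25 of 25 ciliary and secretory genes well above background in all 3 gold pools, against 19 and 23 in all 3 PBS pools. The 3 gold arrays resembled each other little across genes, with Pearson correlations of 0.182 to 0.251, a description across genes that are not independent replicates. On slide 1, 360 genes were more than 2-fold higher and 1445 more than 2-fold lower in the gold pool, against 293 and 23 on slide 2 and 86 and 191 on slide 3. The PBS pool of slide 1 differed from the other PBS pools in macrophage, neutrophil and gliosis genes, as described further down, and values without slide 1 are therefore given as well.

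Among 23204 genes tested with limma, with Benjamini-Hochberg adjustment and a threshold of 0.05, 193 (0.832%) were higher and 34 (0.147%) lower with gold 100 nm than with PBS. The fit used all 12 arrays to estimate the spread. With the slide as a random block the counts were 138 (0.595%) and 19 (0.0819%), and with the replicate block, the slide as a fixed term, 890 (3.84%) and 671 (2.89%). The fixed term takes differences shared by the arrays of a slide out of the spread, which may include those between PBS pools. Its counts and p-values therefore leave out part of the spread that a comparison with PBS faces. The counts fell whichever slide was left out. Leaving out all arrays of slide 1, 2 or 3 left 33, 4 or 28 higher and 1, 0 or 0 lower genes. Such fits hold fewer arrays, so a loss of calls in them cannot be assigned to the slide left out. The 3 gold 100 nm arrays alone gave 0 calls with limma, with 1939 genes at an unadjusted p under 0.05.

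Genes of secretory epithelia around the vitreous were among those that rose most with gold 100 nm. Of 25 measured genes of the ciliary body, vitreous and secretory epithelia, 6 rose (Optc, Slc26a4, Gpx3, Slc13a4, Slc6a13 and Cldn2) and 0 fell, where 0.832% of all genes were called higher. With the slide as a random block only Cldn2 of the 25 was called. The median ratio of the list was 1.03, against -0.02 over all genes, and it was 0.74 without slide 1. All 25 genes were above 0 on slide 1, 24 on slide 2 and 20 on slide 3. The summed level of the list, on a log2 scale, was 17.6 to 17.9 in the gold pools and 16.4 to 17.3 in the PBS pools. Markers of pigment epithelium, lens and cornea also differed between the pools of a slide, as given further down, and their part in these ratios was not tested. Because the list was drawn up with earlier results of these data known, these counts describe it and are no independent evidence.

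Optc encodes opticin, a small leucine-rich protein of the vitreous that the non-pigmented ciliary epithelium secretes. Its level was 11.43, 11.55 and 11.47 in the gold pools against 7.61, 8.05 and 7.74 in the PBS pools of slides 1, 2 and 3. Every gold pool was above every PBS pool, and the 3 ratios of 3.82, 3.51 and 3.73 lay close together. Their mean was 3.68 ± 0.16 (SD, n = 3), a 12.8-fold difference (adjusted p = 0.0221, and 0.0969 with the random block). Without slide 1 the adjusted p was 0.387. Optc had means of 2.56, 3.03 and 2.22 with gold 20 nm, silicate 20 nm and silicate 100 nm.

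Slc26a4 encodes pendrin, an exchanger of chloride, iodide and bicarbonate. It stood at 11.51, 11.10 and 10.07 in the gold pools and at 7.76, 7.72 and 8.56 in the PBS pools, so the groups did not overlap and the difference was smallest on slide 3, where the ratio was 1.51. Gpx3, the secreted glutathione peroxidase, stood at 11.57, 11.42 and 11.18 in the gold pools and at 8.84, 8.44 and 8.99 in the PBS pools. Its ratio averaged 2.63 ± 0.41 (SD, n = 3). Gpx3 was also the 1 called gene among 26 genes of oxidative stress and Nrf2 targets, of which 4 were above and 2 below 0 on all 3 arrays, where 17.5% and 17.8% of all genes were. With the random block its adjusted p was 0.144 and 0 of the 26 were called.

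The other called secretory genes encode transport and junction proteins. Slc6a13, a transporter of GABA, betaine and taurine, stood at 12.35, 12.07 and 11.94 in the gold pools and at 10.08, 10.08 and 10.75 in the PBS pools. Its mean ratio was 1.82 ± 0.56 (SD, n = 3), a 3.52-fold difference (adjusted p = 0.0236). Slc13a4, a sodium-dependent sulfate transporter, had ratios of 2.71, 2.49 and 1.92. Cldn2, a claudin that forms cation-permeable pores between epithelial cells, stood at 8.22, 7.92 and 7.88 in the gold pools and at 6.14, 6.32 and 6.56 in the PBS pools. Cldn2 was well above background in only 1 of the 3 PBS pools. Its mean ratio was 1.67 ± 0.39 (SD, n = 3), and its adjusted p was 0.0099, or 0.0464 with the random block. On the processed signals of the scanner software its mean ratio was 4.06, so the size of the ratio depended on the processing. Without slide 1 none of the 6 called secretory genes passed the threshold, and the adjusted p lay between 0.276 for Cldn2 and 0.464 for Slc26a4. None passed without slide 2 or without slide 3 either. There the adjusted p lay between 0.261 for Cldn2 and 0.58 for Gpx3, and between 0.064 for Optc and 0.119 for Slc13a4.

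Other secretory genes missed the threshold. Fbln1, a fibulin of the extracellular matrix, stood at 10.31, 10.17 and 9.70 in the gold pools and at 7.06, 6.36 and 7.37 in the PBS pools, with a mean ratio of 3.13 ± 0.75 (SD, n = 3) and an adjusted p of 0.0605. A further Fbln1 probe averaged 1.88. The members named from here to the end of the paragraph were chosen after their values were seen. Zic1, a zinc-finger transcription factor, had ratios of 1.58, 1.46 and 0.78. Kcnj13, a potassium channel of pigment and choroid plexus epithelia, had 2.53, 1.48 and -0.01, and Aqp5, a water channel of glands and cornea, had 0.98, 0.53 and -3.35. The list therefore held members whose ratio vanished or turned on slide 3 beside members such as Optc whose ratio did not.

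**Figure D1:**
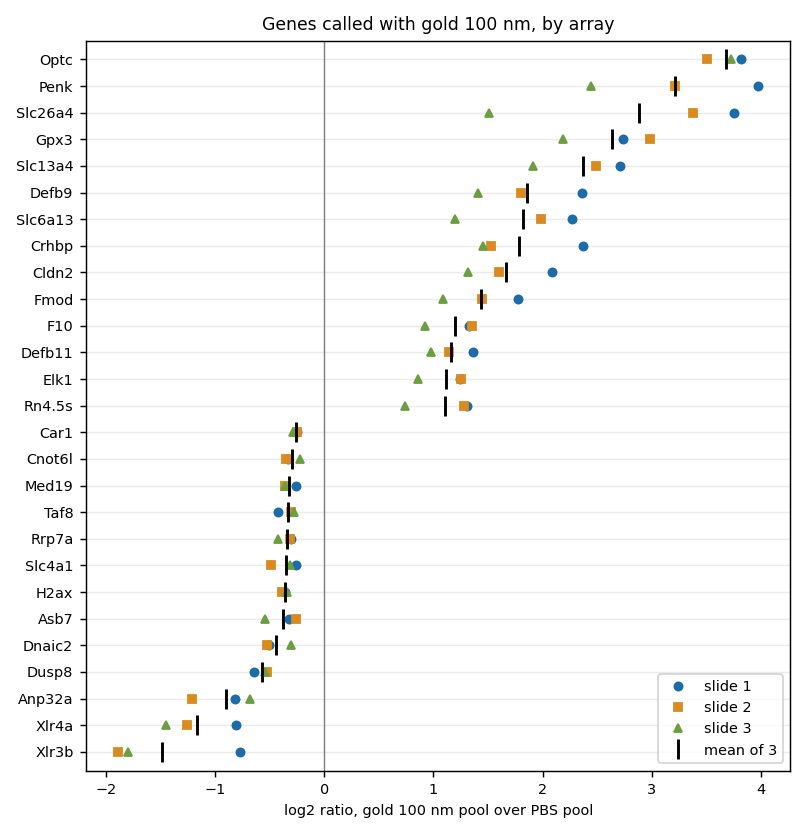
Log2 ratio of the gold 100 nm pool over the PBS pool on each of the 3 arrays (points) and their mean (bar) for genes chosen by the naming rule among those called with gold 100 nm and not called in all 4 particle groups. The higher genes spread from 0.74 to 3.98 and slide 3 is the lowest of the slides for all of them except Optc, while the lower genes lie between -1.89 and -0.22.

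Penk, which encodes the precursor of the enkephalin opioid peptides, was the only one of 16 measured neuropeptide genes that was called. It stood at 13.86, 13.41 and 13.31 in the gold pools and at 9.89, 10.21 and 10.86 in the PBS pools, with a mean ratio of 3.21 ± 0.76 (SD, n = 3, adjusted p = 0.0336 in limma, and 0.0862 with the random block, which leaves 0 of 16 called). The next neuropeptides in the list had means of 0.45 for Vip, 0.43 for Tac1 and 0.40 for Cartpt, none of which passed the threshold. Among all genes, 0.832% were called higher. Crhbp, the protein that binds corticotropin-releasing hormone, rose by a mean ratio of 1.79 ± 0.51 (SD, n = 3), with 2.37, 1.53 and 1.46 on the slides. Its adjusted p was 0.0245, or 0.1 under the random block.

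The beta-defensins Defb9 and Defb11, members of a family of small antimicrobial peptides, both rose. Defb9 had ratios of 2.36, 1.80 and 1.41 (adjusted p = 0.0297, and 0.116 with the random block), with 1 of 3 PBS pools well above background, while Defb11 had 1.36, 1.14 and 0.98 (adjusted p = 0.034, and 0.107 with the random block). Fmod, fibromodulin, a collagen-binding relative of opticin, stood at 8.92, 9.06 and 8.60 in the gold pools and at 7.14, 7.62 and 7.51 in the PBS pools (adjusted p = 0.0461, and 0.15 with the random block). Other matrix genes with a ratio above 0 on all 3 arrays missed the threshold. Fbn1, the microfibril protein fibrillin, had 1.93, 1.99 and 1.53 (adjusted p = 0.096), and Mfap4, a microfibril-associated protein, had 2.51, 2.17 and 1.64 (adjusted p = 0.101). Ogn, osteoglycin, had 3.11, 1.82 and 1.08, and Ecrg4, a secreted peptide precursor of choroid plexus and other epithelia, had 2.78, 2.31 and 1.31. Over 5 genes of fibrillar collagens, decorin and lumican the median was -0.77, 1.68 and -0.00 on the slides. Dcn, decorin, had 0.21, 3.33 and -0.27, and Fn1, fibronectin, had -4.11, -0.16 and -0.42. In all, 0 of 24 connective tissue genes were called. On all 3 arrays 7 were above and 1 below 0, where 17.5% and 17.8% of all genes were.

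**Figure D2:**
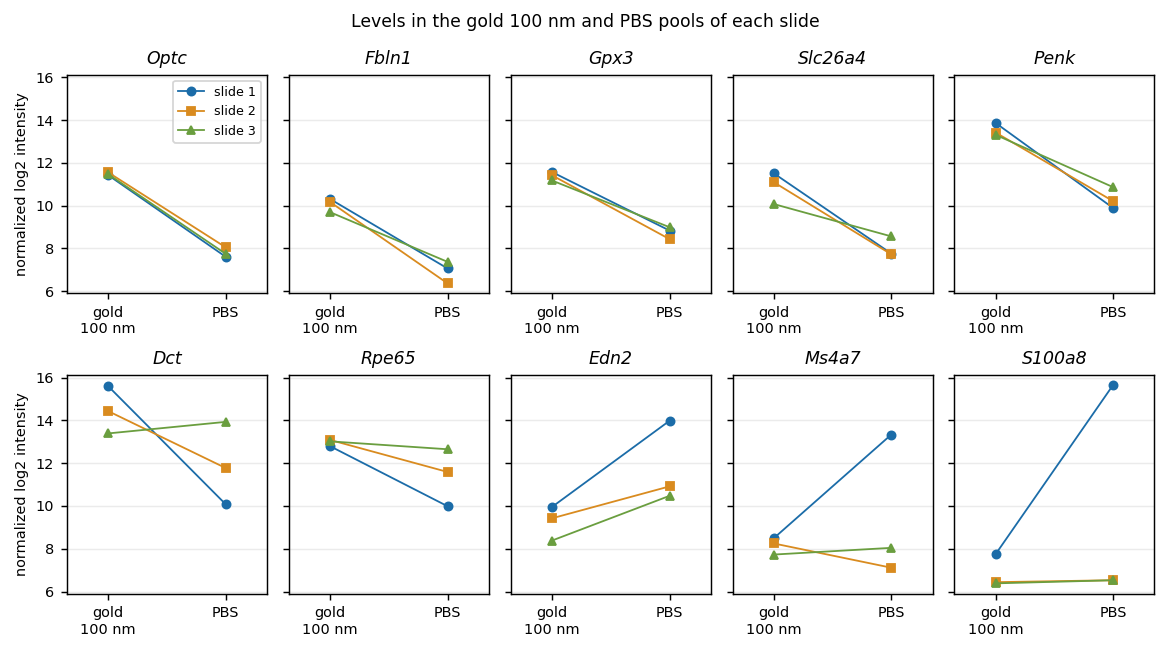
Normalized log2 intensity in the gold 100 nm pool (left) and the PBS pool (right) of each slide, joined by a line, for 10 genes. Optc, Fbln1, Gpx3, Slc26a4 and Penk are higher in every gold pool, Dct and Rpe65 differ mainly on slides 1 and 2, Edn2 is lower in every gold pool, and Ms4a7 and S100a8 are high only in the PBS pool of slide 1.

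The genes that fell with gold 100 nm and are named here had mean ratios between -1.49 and -0.26. Dusp8, a phosphatase that inactivates stress-activated MAP kinases, stood at 12.62, 12.80 and 12.41 in the gold pools and at 13.27, 13.32 and 12.96 in the PBS pools. The gold pool was the lower one on each slide, with ratios of -0.64, -0.52 and -0.55, a mean of -0.57 ± 0.07 (SD, n = 3) and an adjusted p of 0.00321 (0.013 with the random block). It was the 1 called member of 22 MAP kinase phosphatase and ERK feedback genes, where 0.147% of all genes were called lower. On the processed signals of the scanner software its adjusted p was 0.0103. H2ax, the histone variant phosphorylated at DNA breaks, had -0.36, -0.39 and -0.34 (adjusted p = 0.0102, and 0.367 on the processed signals). Its levels were 11.59, 11.54 and 11.64 in the gold pools and 11.95, 11.94 and 11.98 in the PBS pools, so the groups did not overlap.

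Xlr3b and Xlr4a belong to a cluster of lymphocyte-regulated genes on the X chromosome, and 3 of the 9 listed relatives were measured. Xlr3b stood at 8.73, 8.05 and 8.18 in the gold pools against 9.51, 9.94 and 9.97 in the PBS pools, and Xlr4a at 7.37, 6.89 and 6.82 against 8.17, 8.14 and 8.27. Both fell, with adjusted p of 0.00894 and 0.0444, and with the random block Xlr3b stayed called (adjusted p = 0.0158) while Xlr4a did not (0.118). Xlr4b had ratios of -1.12, -0.58 and -1.13 and missed the threshold (adjusted p = 0.176). The 3 genes are relatives, so a probe may read more than 1 of them, which was not tested. A further Xlr3b probe averaged -1.08.

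Further called lower genes had small ratios. Rrp7a, a factor of ribosomal RNA processing, fell by 0.34 on the log2 scale and its further probe averaged -0.30 (adjusted p = 0.0601 for that probe). Med19, a Mediator subunit, Taf8, a subunit of the general factor TFIID, and Cnot6l, a deadenylase of the CCR4-NOT complex, fell by 0.32, 0.33 and 0.30. Taf8 lost its call with the random block (adjusted p = 0.0603), as did Anp32a (0.089) and Car1 (0.0855). The further probe of Cnot6l averaged 0.01, so its probes disagreed. Asb7, part of a ubiquitin ligase, had -0.32, -0.26 and -0.54, and Anp32a, an acidic nuclear phosphoprotein, had -0.82, -1.21 and -0.68 while its further probe averaged -0.11. Dnaic2, a dynein chain of motile cilia, had -0.51, -0.52 and -0.30 (adjusted p = 0.0222, and 0.0475 with the random block). Car1, a carbonic anhydrase known from red cells, fell by 0.26, and Slc4a1, the anion exchanger of the red cell membrane, fell by 0.35 (adjusted p = 0.0492, and 0.126 with the random block). On the processed signals none of the genes of this paragraph passed the threshold, with adjusted p from 0.123 for Anp32a to 0.768 for Med19.

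Haemoglobin genes, which report on blood in the pools, did not follow Slc4a1 on every slide. Their median ratio over 4 genes was 0.33, -0.81 and -1.48 on slides 1, 2 and 3. Hba-a1 stood at 13.04, 12.44 and 12.73 in the gold pools and at 12.65, 13.26 and 14.27 in the PBS pools, so the gold pools varied less than the PBS pools. Of 8 measured blood genes, 0 rose and 1 fell, Slc4a1, whose call was lost with the random block (adjusted p = 0.126). Among all genes, 0.832% were called higher and 0.147% lower. The part of blood content in the fall of Slc4a1 and Car1 was not tested.

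The next genes were called in the same direction with every particle, in comparisons that share slides and may share PBS tubes, and for them dye and particle cannot be told apart. Serpina6, the corticosteroid-binding globulin, stood at 8.69, 8.91 and 8.71 in the gold 100 nm pools and was not well above background in any PBS pool, so it was at least 5.75-fold higher (adjusted p = 5.07e-06). AY074887 stood at 8.90, 8.92 and 8.87 in the gold pools and at 6.67, 6.67 and 7.05 in the PBS pools, but its further probe averaged 0.04. Prokr1, a receptor for prokineticins, had ratios of 1.54, 2.20 and 2.18. Fam163b was not well above background in any PBS pool and was at least 2.73-fold higher. Both bounds were taken from single channels after normalization and are open to dye bias, since no dyes were exchanged. Dlgap5, a spindle protein of dividing cells, had ratios of 1.20, 1.73 and 1.07. It was the 1 called member of 19 proliferation genes, where 0.832% of all genes were called higher. Its further probe averaged 0.49, and Mki67, the standard proliferation marker, had -1.51, 0.06 and -0.20.

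Very bright probes leaned towards the gold pools. The 369 genes with a mean log2 intensity of 16 or more had median ratios of 0.36, 0.17 and 0.21 on slides 1, 2 and 3, and 46 of them (12.5%) were called higher and 0 lower, where 0.832% of all genes were called higher. On the processed signals of the scanner software the medians of the same genes were 0.11, 0.01 and 0.07 and 8 were called. The corresponding medians on the 9 arrays of the other particles were 0.14 to 0.34. In the lowest range of intensity, 69 of 3153 genes (2.19%) were called higher and 13 lower.

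**Figure D3:**
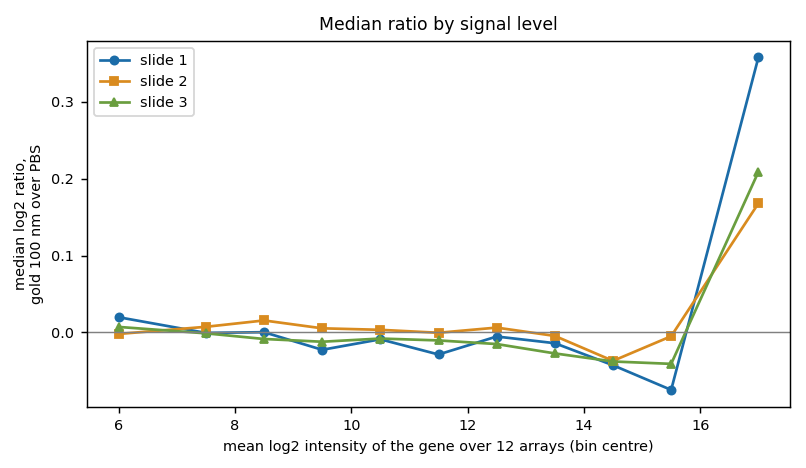
Median log2 ratio of gold 100 nm over PBS on each slide against the mean log2 intensity of the gene over 12 arrays, in 11 ranges of intensity. The medians lie between -0.07 and 0.02 up to an intensity of 16 and are 0.36, 0.17 and 0.21 in the brightest range.

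Several called genes lie in this bright range. The probe of F10, coagulation factor X, stood at 18.55, 18.50 and 18.38 in the gold pools and at 17.22, 17.15 and 17.46 in the PBS pools (adjusted p = 0.0181), while its further probe had ratios of -4.52, -0.13 and 0.05. Elk1, an ETS transcription factor, had 1.25, 1.25 and 0.86, and its further probe averaged 0.03. Rn4.5s, a small noncoding RNA, had 1.31, 1.28 and 0.74. On the processed signals none of these 3 passed the threshold, with adjusted p of 0.0934, 0.0774 and 0.209. The part of the intensity trend in these calls was not tested.

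Glycolytic genes are bright in retina, whose photoreceptors are known for aerobic glycolysis. Eno1, an enolase, had ratios of 0.48, 0.30 and 0.54 and was the 1 called gene among 26 of hypoxia and glycolysis (adjusted p = 0.0459, with 0.108 in the random block and 0.578 on the processed signals). Aldoa, an aldolase, had 0.41, 0.44 and 0.47, and Gapdh had 0.75, 0.44 and 0.52 on its brightest probe, neither of them called. The 6 further Gapdh probes averaged between -0.00 and 0.54. The hypoxia factors Hif1a and Epas1, chosen after their values were seen, had -0.48, -0.33 and -0.13 and -0.31, -0.15 and -0.30. The median of the list was -0.01, and 0.15 with median centring in place of loess, so its sign turned with the scaling. Of the 26 genes, 10 were above and 4 below 0 on all 3 arrays, where 17.5% and 17.8% of all genes were. Among all genes, 0.832% were called higher.

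Markers of the retinal pigment epithelium and of melanocytes had a median ratio of 1.24 over 20 genes, against -0.02 over all genes, and 0 of 20 were called. Above 0 on all 3 arrays were 13 of 20, where 17.5% of all genes were, and 0 were below. The median was 2.15, 1.26 and 0.13 on slides 1, 2 and 3, and 0.80 without slide 1. Their summed level on a log2 scale was 17.9, 17.8 and 17.3 in the gold pools and 16.7, 17.1 and 17.4 in the PBS pools. On slide 3 the gold level was the lowest and the PBS level the highest of the slides.

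Promoter sequences of 3 melanin genes are shown because they encode enzymes of melanin synthesis and share a motif, although Tyr had a lower mean ratio than the list median. Tyrp1 and Dct encode melanosomal enzymes and Tyr encodes tyrosinase, the first enzyme of melanin synthesis. The stretches were taken from RefSeq promoters of GRCm38.p6, 5′ to 3′ on the strand of the gene, with the motif CATGTG in capitals. They lie at chr4:80834113-80834212 on the plus strand for Tyrp1, at chr7:87493513-87493612 on the minus strand for Tyr and at chr14:118052347-118052446 on the minus strand for Dct.
Tyrp1: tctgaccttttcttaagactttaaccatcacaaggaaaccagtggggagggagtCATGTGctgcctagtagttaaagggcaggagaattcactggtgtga
Tyr: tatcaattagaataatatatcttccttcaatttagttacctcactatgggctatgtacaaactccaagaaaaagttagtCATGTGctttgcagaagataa
Dct: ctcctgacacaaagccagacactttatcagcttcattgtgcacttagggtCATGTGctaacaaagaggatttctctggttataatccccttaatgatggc
CATGTG is known as the core of the element that MITF, the master regulator of pigment cells, binds in melanin gene promoters. Counted from the transcription start, it begins at position -46 in Tyrp1, -21 in Tyr and -150 in Dct. Searched on both strands of windows of 300 bases, it occurred for 9 of the 16 list genes with a RefSeq promoter (56.2%) and for 15.9% of 27025 genes. The match is a description of the letters and not of binding.

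The melanin genes followed the slides closely. Dct stood at 15.60, 14.43 and 13.39 in the gold pools and at 10.07, 11.77 and 13.93 in the PBS pools of slides 1, 2 and 3. The groups overlapped, because the PBS pool of slide 3 was above that slide's gold pool. Tyrp1 had ratios of 4.70, 3.02 and 0.14 (adjusted p = 0.289), Pmel, which forms the fibrils of melanosomes, had 4.34, 2.55 and -0.30, and Mlana, a melanosomal membrane protein, had 3.96, 2.75 and -0.43. Tyr, chosen after its values were seen, had 1.00, 0.64 and 0.05. Over 7 melanin genes the median was 3.96, 2.55 and 0.05 on the slides.

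Genes of the visual cycle and of pigment epithelium transport kept their sign on every slide, though none was called. All 8 were above 0 on slides 1, 2 and 3, with medians of 2.49, 1.37 and 0.36. These 8 are a part of the list of 20 and were set apart with earlier results of these data known. Of the whole list, 18, 19 and 14 genes were above 0 on slides 1, 2 and 3. Below 0 were 2, 1 and 6, with a lowest ratio of -0.76 on slide 1. The following 3 were chosen after their values were seen. Rpe65, the isomerase of the visual cycle, stood at 12.79, 13.08 and 13.02 in the gold pools and at 9.98, 11.59 and 12.65 in the PBS pools. Its adjusted p was 0.344, and 0.000986 with the replicate block, which takes the slides' mean differences out of the spread. The PBS pools differed between slides, so the replicate block p-values of this paragraph leave out part of the spread of a comparison with PBS. Rgr, an opsin of the pigment epithelium, had ratios of 2.81, 1.40 and 0.46 (adjusted p = 0.301, and 0.000832 with the replicate block), and Ttr, a carrier of retinol and thyroid hormone, had 3.05, 1.36 and 0.26. The Rpe65 levels of the gold pools lay close together while those of the PBS pools did not, so the ratio was necessarily smallest where the PBS level was highest.

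Lens genes split into groups with different ratios. Over 22 lens genes the median was 0.40, but it was 2.20, 0.17 and -2.0 on slides 1, 2 and 3 and -0.84 without slide 1. The summed level on a log2 scale was 19.7, 19.6 and 17.1 in the gold pools and 16.4, 18.9 and 18.8 in the PBS pools, so both kinds of pool varied. None of the 22 genes was called. Below 0 on all 3 arrays were 5 of 22 and above 0 were 0, where 17.8% and 17.5% of all genes were.

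The gamma-crystallins, structural proteins of the lens fibre core that are encoded in a cluster on chromosome 1 with Crygf at some distance, included the lens genes with the lowest mean ratios. Cryge stood at 8.88, 9.16 and 8.02 in the gold pools and at 11.30, 12.82 and 11.02 in the PBS pools. The groups did not overlap, and the ratios of -2.42, -3.66 and -2.99 averaged -3.02 ± 0.62 (SD, n = 3), with an adjusted p of 0.0595 (0.1 with the random block). Crygf stood at 7.19, 8.11 and 7.06 in the gold pools and at 10.28, 11.86 and 9.65 in the PBS pools, with a mean of -3.14 ± 0.59 (SD, n = 3), an adjusted p of 0.078 and -2.46 on its further probe. Cryga, Crygb, Crygc and Crygd had ratios between -0.28 and 0.00 on slide 1 and between -2.58 and -1.98 on slides 2 and 3, Crygb and Crygd having been chosen after their values were seen. Cryge and Crygf were below these 4 on every slide, by the widest margin on slide 1. The further Crygc probes had 0.11 and 0.12 on slide 1. With gold 20 nm Cryge averaged -3.32 (adjusted p = 0.0498) and Crygf -3.15 (adjusted p = 0.0941), values of the same size as with gold 100 nm.

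Stretches of 100 bases before the start of 4 gamma-crystallin genes are shown because Cryge and Crygf had the lowest mean ratios of the genes named here while Crygd and Crygb did not share them on slide 1. They are RefSeq sequences of GRCm38.p6, 5′ to 3′ on the strand of the gene, with TATATA and CCTTTTGTG in capitals. They lie at chr1:65051164-65051263 on the minus strand for Cryge, chr1:65926422-65926521 on the plus strand for Crygf, chr1:65063441-65063540 on the minus strand for Crygd and chr1:65082291-65082390 on the minus strand for Crygb.
Cryge: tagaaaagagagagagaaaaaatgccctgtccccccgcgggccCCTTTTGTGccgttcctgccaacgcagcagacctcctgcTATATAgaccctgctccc
Crygf: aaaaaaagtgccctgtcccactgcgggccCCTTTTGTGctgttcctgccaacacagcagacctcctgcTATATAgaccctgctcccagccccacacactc
Crygd: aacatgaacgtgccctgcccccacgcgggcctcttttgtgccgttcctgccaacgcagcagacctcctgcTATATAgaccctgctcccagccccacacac
Crygb: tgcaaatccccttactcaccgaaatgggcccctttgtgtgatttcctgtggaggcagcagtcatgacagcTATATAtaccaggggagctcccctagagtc
TATATA, a form of the TATA box, begins at position -18 in Cryge, -32 in Crygf and -30 in Crygd and Crygb, and occurred on either strand in 5.67% of 32851 promoter windows of 300 bases. CCTTTTGTG begins at -57 in Cryge and -71 in Crygf, is not in the stretches of Crygd and Crygb, and occurred in 0.377% of windows. Crygd differs from it by 1 base at the matching place, so its absence there rests on the exact string. Crygb and Crygd were also below 0 on slides 2 and 3. No function is assigned to the string here, and its part in the ratios was not tested. The motifs do not overlap. The stretches were aligned over their whole length, with gaps and unmatched ends counted as differences. Crygf and Crygd were then 87.3% identical (89 of 102 columns), Cryge and Crygf 70.2% (80 of 114) and Cryge and Crygd 71.4% (80 of 112). Crygb was 53% to 62.3% identical to the others. TATATA begins nearer the start in Cryge, so the Cryge stretch is shifted against the others and its unmatched ends lower its percentages. The percentages therefore do not rank the pairs by likeness. The gamma-crystallin transcripts are also similar to each other, and a probe may read more than 1 of them.

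The other lens genes had the opposite sign on slide 1. Over 8 alpha- and beta-crystallins the medians were 3.45, 0.40 and -1.61 on the slides. Cryaa, the alpha-crystallin chaperone of the lens and chosen after its values were seen, had 4.30, 1.61 and -1.51. Over 6 genes of fibre membranes and filaments, among them Mip, the water channel of lens fibres chosen after its values were seen, the medians were 1.64, 0.49 and -1.26. On slide 3 all 22 lens genes were below 0.

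**Figure D4:**
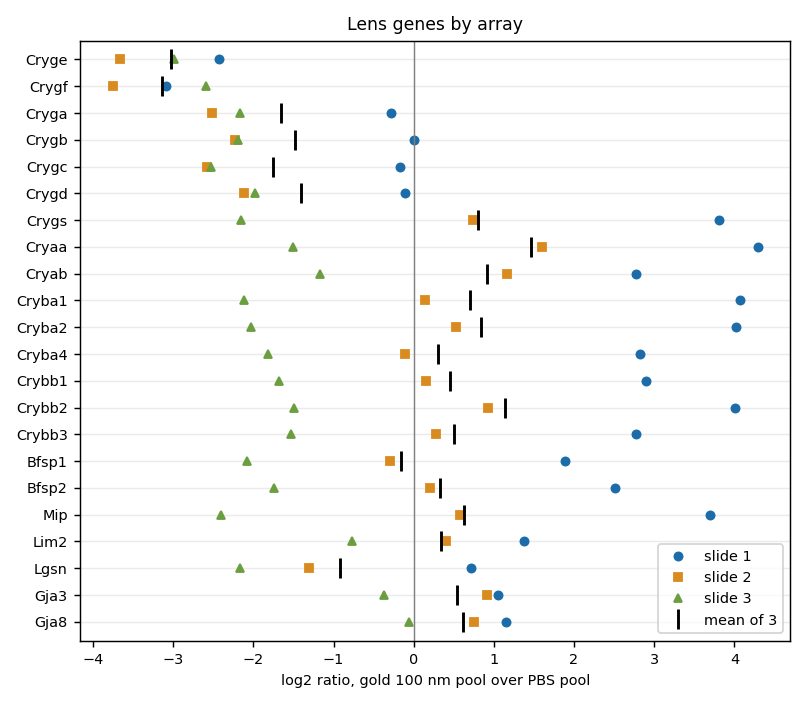
Log2 ratio of the gold 100 nm pool over the PBS pool on each of the 3 arrays (points) and their mean (bar) for 22 lens genes. Cryge and Crygf lie below -2 on all 3 arrays, the alpha- and beta-crystallins lie between 2.77 and 4.30 on slide 1 and below 0 on slide 3.

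Cornea and conjunctiva markers also differed on slide 3. Krt12, the corneal keratin, stood at 8.64, 7.46 and 9.15 in the gold pools and at 7.20, 7.21 and 13.23 in the PBS pools. Over 8 corneal and conjunctival genes the median was 1.13, 0.43 and -2.87 on the slides, and Slurp1, a secreted corneal protein chosen after its values were seen, had -3.44 on slide 3. The PBS pool of slide 3 thus held more RNA of these genes than its gold pool. Of 20 genes of cornea, conjunctiva and muscle 0 were called. On all 3 arrays 3 were above and 0 below 0, where 17.5% and 17.8% of all genes were.

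Genes of retinal neurons had small ratios, mostly above 0 on slide 1. Of 24 rod genes 0 were called. On all 3 arrays 14 were above and 0 below 0, where 17.5% and 17.8% of all genes were. The rod median was 0.64, 0.09 and 0.24 on the slides, 0.25 over the gene means, 0.17 on the processed signals and 0.55 with median centring. Prph2, a protein of the outer segment disc rim, stood at 18.18, 18.04 and 18.13 in the gold pools and at 17.16, 17.52 and 17.28 in the PBS pools, which did not overlap (adjusted p = 0.248). The median level of the rod genes lies in the bright range described above, and the part of that trend in their ratios was not tested.

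Retinal ganglion cells send the optic nerve fibres. Of 17 of their genes, 11 were above and 0 below 0 on all 3 arrays, where 17.5% and 17.8% of all genes were. The median of the 17 was 0.19, and 0.05 without slide 1. Slc17a6, the vesicular glutamate transporter of these cells, stood at 11.04, 11.32 and 11.53 in the gold pools and at 10.22, 11.00 and 10.82 in the PBS pools (adjusted p = 0.219). Opn4, melanopsin, had 0.48, 0.11 and 0.20. Bipolar cell genes had a median of 0.17, amacrine and horizontal cell genes of 0.13 and cone genes of 0.08, and without slide 1 these medians were 0.03, 0.05 and -0.00. In these lists 0 of 17, 0 of 17 and 0 of 14 genes were called. Cone genes were above 0 for 12 of 14 on slide 1, 5 on slide 2 and 7 on slide 3. Of 18 Muller glia genes 1 was called, where 0.832% of all genes were called higher. This gene, Slc6a13, is also in the secretory list and was not called with the random block (adjusted p = 0.0751). Dkk3, a secreted Wnt regulator abundant in these cells, had ratios of 0.23, 0.80 and 0.55, and Car14, a carbonic anhydrase of their membrane, 0.96, 0.31 and 0.26.

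Most injury and immune genes were lower in the gold pool than in the PBS pool on slide 1, where the PBS pool was above the other PBS pools. Ms4a7, picked with its values known, is a macrophage membrane gene. It stood at 8.49, 8.25 and 7.73 in the gold pools and at 13.34, 7.11 and 8.04 in the PBS pools. S100a8, a calcium-binding protein of neutrophils, stood at 7.75, 6.44 and 6.38 in the gold pools and at 15.66, 6.53 and 6.53 in the PBS pools. The single high value for these genes was the PBS pool of slide 1. For some neutrophil genes the gold pool of slide 1 was also above the other gold pools. Slpi stood at 12.00, 6.39 and 6.39 and S100a9 at 11.03, 7.22 and 7.56 in the gold pools. In the PBS pools they stood at 16.49, 6.27 and 6.44 and at 16.91, 7.30 and 8.81. The median level of the 13 neutrophil genes was 7.76, 7.22 and 7.56 in the gold pools and 11.14, 7.30 and 7.73 in the PBS pools. The median level of 23 macrophage and microglia genes was 9.42, 9.26 and 8.81 in the gold pools and 12.9, 8.78 and 9.61 in the PBS pools, and their median ratio was -1.18, or -0.10 without slide 1. Of the 23 genes 0 were called and 2 were below 0 on all 3 arrays, where 17.8% of all genes were. In all 3 gold pools 22 of 23 were well above background.

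Among 22 genes of gliosis and retinal injury 0 were called. On all 3 arrays 6 were below and 0 above 0, where 17.8% and 17.5% of all genes were. Edn2, endothelin 2, which injured photoreceptors are known to release, stood at 9.95, 9.42 and 8.38 in the gold pools and at 13.98, 10.91 and 10.47 in the PBS pools. The groups did not overlap, and the ratios were -4.03, -1.49 and -2.09 (adjusted p = 0.255). Its means with gold 20 nm, silicate 20 nm and silicate 100 nm were -0.01, -0.46 and -0.43. Cebpd, an injury-induced transcription factor, had -4.55, 0.26 and -1.54, and Gfap, the filament of reactive glia, had -2.94, 0.13 and -1.40.

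Interferon-induced genes had ratios below 0 on slides 1 and 3 and near 0 on slide 2. Oasl1, a regulator of the antiviral response, had -2.56, 0.03 and -2.71, and Isg15, a ubiquitin-like antiviral protein, had -2.38, 0.08 and -2.16. All 28 interferon response genes were below 0 on slide 3 and 27 of 28 on slide 1, while 24 of 28 were above 0 on slide 2. The list median was -0.93, or -0.19 without slide 1, and 0 of 28 were called. Complement, chemokine, MHC and lysosome lists had medians of -0.66, -0.95, -0.94 and -0.45, and of 0.07, -0.00, -0.05 and 0.06 without slide 1, with 0 genes called in each.

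**Figure D5:**
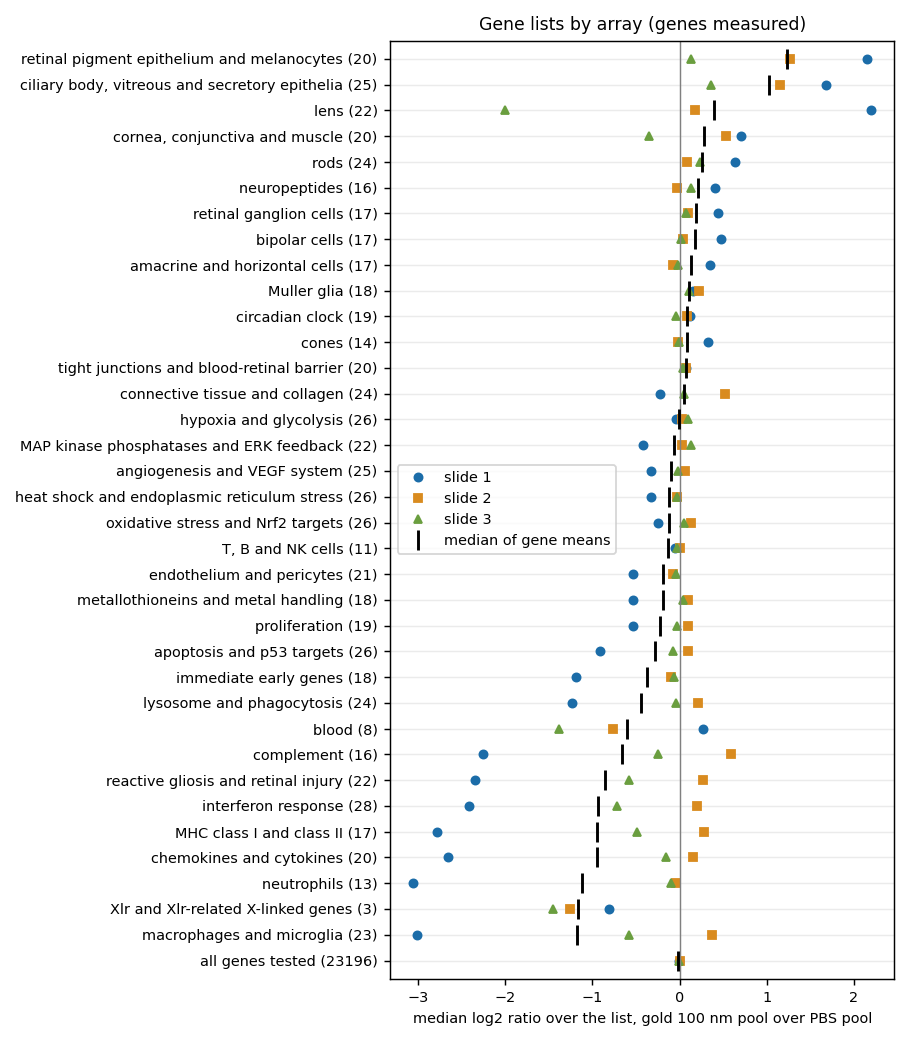
Median log2 ratio of gold 100 nm over PBS for 35 gene lists and all genes on each of the 3 arrays (points) and over the gene means (bar), with the number of genes measured in brackets. Macrophage, interferon, MHC, chemokine, complement and gliosis lists lie below -2 on slide 1 and above 0 on slide 2, and pigment, secretory and lens lists lie above 0 on slides 1 and 2.

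Nanoparticles in the eye have been studied for effects on vessels, and vascular genes are therefore given. Of all genes tested, 17.5% were above and 17.8% below 0 on all 3 arrays, and 0.832% were called higher and 0.147% lower. Of 25 genes of angiogenesis and the VEGF system 0 were called, with 4 above and 5 below 0 on all 3 arrays. Vegfa, the main vascular growth factor, chosen after its values were seen, had 0.29, 0.23 and 0.40 (adjusted p = 0.107). Flt1, a VEGF receptor, stood at 12.31, 12.60 and 12.12 in the gold pools and at 13.41, 12.86 and 12.94 in the PBS pools, which did not overlap (adjusted p = 0.156). Cldn5, the tight junction protein of retinal vessels, had -1.07, -0.70 and -0.39 (adjusted p = 0.222), and Vwf, the endothelial clotting factor, had -2.58, -0.65 and -1.05. Of 21 endothelial and pericyte genes 0 were called, with 2 above and 5 below 0 on all 3 arrays. Of 20 genes of tight junctions and the blood-retinal barrier 1 was called, Cldn2, with 7 above and 3 below 0 on all 3 arrays. Cldn19, a claudin of the pigment epithelium, chosen after its values were seen, had 0.38, 0.35 and 0.30.

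Stress lists held few calls. For comparison, 17.5% of all genes were above and 17.8% below 0 on all 3 arrays, and 0.832% were called higher and 0.147% lower. Of 26 genes of heat shock and endoplasmic reticulum stress 0 were called, with 4 above and 9 below 0 on all 3 arrays. Hspa8, a constitutive chaperone in the bright range, had 0.40, 0.15 and 0.32 (adjusted p = 0.0522), while its further probes averaged -0.11 and -0.26. Of 26 apoptosis and p53 target genes 0 were called and 6 were below 0 on all 3 arrays. Casp4, an inflammatory caspase, had -5.65, 0.01 and -0.74. Of 18 immediate early genes 0 were called and 6 were below 0 on all 3 arrays, and Klf2, a shear-stress factor of vessels, had -2.87, -0.31 and -0.47. Of 18 metallothionein and metal handling genes 0 were called, with 2 above and 3 below 0 on all 3 arrays, and Mt2, a metallothionein, had -2.58, 0.47 and -0.28. Of 19 circadian clock genes 0 were called, with 4 above and 1 below 0 on all 3 arrays. Of 13 neutrophil genes and of 11 genes of T, B and NK cells 0 were called.

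Gold 100 nm was then set against the mean of the other particle groups, a contrast in which a dye effect of a probe cancels. No gene passed the threshold in either direction with limma, 0 of 23204 (0%), with 449 genes at an unadjusted p under 0.05. The random block and the replicate block also gave 0, with 1370 and 1398 genes at an unadjusted p under 0.05. For the called secretory genes the differences were 1.08 for Optc (unadjusted p = 0.149), 1.05 for Slc26a4 (0.125), 0.84 for Slc6a13 (0.0369), 0.67 for Cldn2 (0.0287), 0.48 for Slc13a4 (0.377) and 0.47 for Gpx3 (0.441). Gpx3 and Slc13a4 had means of 2.63 and 2.37 with gold 100 nm and of 2.87 and 2.57 with silicate 20 nm. The median of the 25 secretory genes was 1.03 with gold 100 nm and 1.02 with silicate 20 nm. Penk differed by 1.29 (unadjusted p = 0.0798). Dusp8 differed by -0.29 (0.00279) and Edn2 by -2.24 (0.0462). None of these passes after adjustment, and that does not show that gold 100 nm and the other particles act alike.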

How the data were processed

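Total RNA extracted with Trizol was hybridised to 2-colour Agilent mouse arrays, with particle RNA in Cy5 and PBS RNA in Cy3, per the labels. The deposited scanner files hold median spot and background intensity per colour, and per the file headers they were written by Feature Extraction 11.0.1.1. A different version, 9.3.2.1, stands in the submitters' processing notes. The deposited series value table holds log2 ratios, and the files' log10 ratios served to settle its scale and direction, with slopes of 3.3 to 3.32 and correlations of 0.984 to 0.991 across probes. Its gold 100 nm column medians were 0.056, 0.0478 and 0.0448, and how it was centred is not given in the sources used here.

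Each array had 44397 spots, of which 1377 were controls, and 214 to 254 outlier spots per gold 100 nm array were left out. No spot was saturated. Of the probes, 70.3% to 73.4% were well above background in the gold pools and 72.5% to 74.3% in the PBS pools. The number of arrays limits the precision. Median signals were corrected with normexp (offset 50) and loess within each array in limma 3.58.1 (R 4.3.3), with control spots given no weight in loess. Single-channel levels were also scaled with Aquantile. A gene was represented by its brightest kept probe, which gave 28428 kept probes and 23206 genes, of which 15563 had a RefSeq symbol, 26055 of 32334 accessions having matched. Genes were tested on all 12 arrays with 4 group means, against 0 for PBS and against the mean of the other groups, with two-sided limma tests adjusted by Benjamini-Hochberg over all genes and a threshold of 0.05. The script was tested on simulated data.

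Replicate numbers equal the slides in the file headers, so they pair the arrays. Deviations of gold 100 nm arrays from their group means correlated with those of the other groups on the same slide at 0.888 to 0.934 on slide 1, 0.081 to 0.831 on slide 2 and 0.553 to 0.603 on slide 3. Whether p-values cover more than the spread between pools cannot be told from the labels. The rule for named genes took, with a RefSeq symbol, the 15 highest and 15 lowest called genes not shared by all 4 groups, 4 genes called in all groups, called genes and the 4 largest ratios of each list, and the 10 highest and 10 lowest genes of 1 sign on all arrays. Some genes that the rule or the lists hold are not reported here. The members and lists were chosen with earlier results of these data known. Alternatives were the slide as a random or fixed block, leaving out arrays, other background, normalization, filter and probe choices, and the series value table. Columns of per-sample values left unused numbered 0.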

Additional observations from a re-analysis of the deposited data

Results flagged for a closer look

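The genes here had all 3 gold 100 nm arrays on one side of 0 and all 3 arrays of another particle group on the opposite side. The difference between the 2 groups was not tested for any of them, and against the mean of all other groups each had an adjusted p of 1. Cryge averaged -3.024 with gold 100 nm, -3.32 with gold 20 nm and 1.43 with silicate 20 nm. Crygf averaged -3.144 with gold 100 nm, -3.15 with gold 20 nm and 1.478 with silicate 20 nm. Cryga averaged -1.657 with gold 100 nm, -2.08 with gold 20 nm and 0.8896 with silicate 100 nm. Crygc averaged -1.759 with gold 100 nm, -2.21 with gold 20 nm and 1.027 with silicate 100 nm. The further Crygc probes averaged -1.31 and -1.41 with gold 100 nm but were above 0 on slide 1, so the single sign holds for the brightest probe only. Dnaic2 averaged -0.4449 with gold 100 nm, -0.43 with gold 20 nm, 0.1854 with silicate 20 nm and 0.2048 with silicate 100 nm. Guca1a, an activator of guanylate cyclase in photoreceptors, averaged 0.457 with gold 100 nm, 0.41 with gold 20 nm and -0.5853 with silicate 20 nm.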

How the results depend on the processing

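The replicate number marks the slide. With the replicate block, 890 genes were higher and 671 lower with gold 100 nm than with PBS, in place of 193 and 34, and all 34 named called genes stayed called, while the random block gave 19 lower genes and kept 16 of the 34. The replicate block takes slide differences out of the spread, so its larger counts may not cover the spread between PBS pools. Leaving out all arrays of 1 slide gave 4 to 33 higher and 0 to 1 lower genes, and leaving out 1 gold 100 nm array gave 49 to 75 higher and 3 to 6 lower. Median centring in place of loess gave 393 higher genes and raised the share of higher calls to 93.3%, against 85%. Probes well above background in both channels gave 58 higher and 5 lower genes. The 3 gold 100 nm arrays alone gave 0 and 0. The processed signals kept 19 of the 34 named calls and the series value table kept 22. Only 8 of the 34 stayed called in each of 7 settings of block, signal, background, normalization, filter and value table. No named call changed direction in any setting, but the size of the ratio changed for genes near background in the PBS pools. On the processed signals Cldn2 averaged 4.06 in place of 1.67 and Defb9 4.58 in place of 1.86. Fam163b averaged 4.98 there in place of 1.57, and Dlgap5 3.61 in place of 1.33. The bright probe of F10 moved the other way, from 1.20 to 0.87. Without slide 1, 4 of the 34 stayed called (AY074887, Serpina6, Prokr1 and Xlr3b), without slide 2 only Serpina6, and without slide 3 5 did. Without slide 1, the medians of 3 of 35 lists moved by more than the spread between arrays, as did 5 with median centring. Against the other particle groups, every setting that holds those groups gave 0 calls. Causes of these changes were not tested, and fewer arrays or genes were used where arrays or probes were left out.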
